A study of Mus musculus with 6 samples.

Results

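The perinuclear theca is the condensed protein shell that wraps the nucleus of the sperm head, between the nuclear envelope and the acrosome in front and beneath the plasma membrane behind. It is laid down in spermatids, the haploid cells that follow meiosis, and it holds the acrosome to the nucleus and carries the factors that activate the egg. Its known parts are basic proteins such as the cylicins, a group of testis-specific actin-related proteins, a testis form of the actin capping protein, and the small cysteine-rich proteins of the Cypt family. The genes described here are 10 of them, found by symbol among 25165 symbols: Cypt2 and Cypt15 of the Cypt family, Cylc1 and Cylc2 for the cylicins, the actin-related genes Actrt1, Actrt2, Actrt3, Actl7a and Actl7b, and Capza3 for the capping protein. They were listed by name when differences between the groups of these libraries were already known, Cypt2 and Cypt15 among them. Their group differences are therefore a description, and the calls below say which side of the threshold each gene fell on and are no independent support.

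Total RNA of whole testes from C57BL/6 mice aged 8 weeks was sequenced in 6 libraries. There were 3 titled KO, from mice lacking the testis long non-coding RNA Teshl, and 3 titled WT, from wild-type mice. The genotype field of the labels contradicts the titles for all 6 libraries, so the groups are those of the titles. The Teshl gene, 1700027A15Rik, was at 0.385 FPKM in titled KO replicate 1 and listed at 0 in titled KO replicates 2 and 3, against 1028, 989 and 1081 FPKM in the libraries titled WT, which goes with the titles. FPKM counts fragments per length of transcript and per size of library, so levels of different genes can be set side by side. The labels do not say whether each library is a separate animal, whether animals were pooled, or how the RNA was removed.

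Log2 fold changes (log2FC) are titled KO over titled WT on the log2(FPKM + 1) scale. They come from limma, fitted to the 12952 genes that averaged 1 FPKM or more in either group, and a gene was called at a Benjamini-Hochberg adjusted p below 0.05. All 10 theca genes passed the filter on low values. Of these, 4 were called higher by limma and 0 lower (0 lower also at an unadjusted p below 0.05), beside 0.788% of all tested genes called higher and 0.363% called lower. The 4 are Cypt2, Cypt15, Cylc1 and Actrt1, which are the 4 that lie on the X chromosome. None of the 6 on autosomes was called by limma, and 3 of them, Actrt2, Actl7a and Capza3, were higher at an unadjusted p below 0.05. Of all tested genes 5.38% were higher and 8.89% lower at that unadjusted threshold, which is the background for every unadjusted count given here. These shares cover all chromosomes together, and none was computed for X-linked genes alone at that threshold. In whole testis, fewer cells of a type and less RNA per cell cannot be told apart. Of all tested X-linked genes 14.2% were called higher, and of autosomal genes 0.21%. The median log2FC was 0.67 for the 4 X-linked theca genes and 0.21 for the 6 autosomal ones, beside 0.05 for all 527 tested X-linked genes and -0.04 for all 12365 autosomal genes. Chromosome was not used to choose the genes, but the group values were, so this split was noticed in the data and was not tested.

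**Figure D1:**
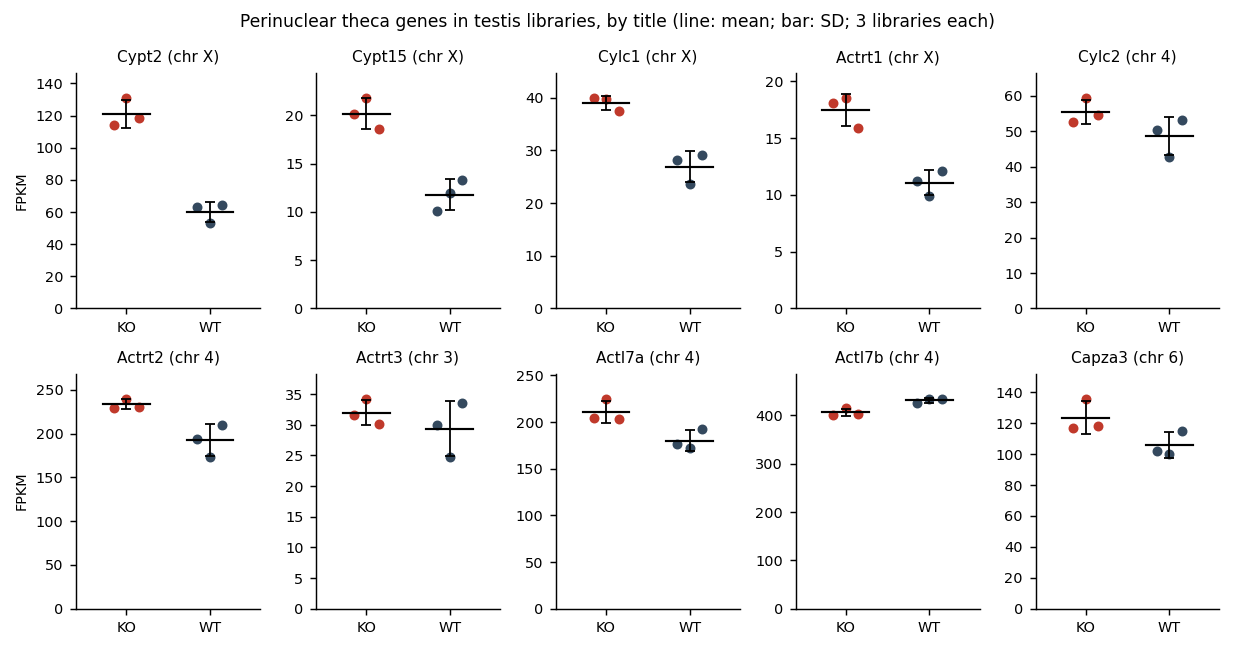
FPKM (vertical axes, each from 0) of the 10 theca genes in the 3 libraries titled KO and the 3 titled WT; points are libraries, lines are means and bars are SD. The upper row opens with the 4 X-linked genes, whose groups lie apart, and Actl7b is the only panel in which the libraries titled KO lie below those titled WT.

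All 10 genes were well expressed. Actl7b was the most abundant, at 406 ± 7.49 FPKM in the titled KO group against 431 ± 4.93 FPKM in the titled WT group (SD, n = 3 each). Actrt2, Actl7a and Capza3 came next in both groups. Actrt1 was the least abundant, at 17.5 ± 1.39 FPKM in the titled KO group against 11.1 ± 1.09 FPKM in the titled WT group (SD, n = 3 each). Over the 6 libraries the mean levels stood between the 65.9th and the 99.3rd percentile of all tested genes. In the order of levels, Capza3 and Cypt2 overlapped in the libraries titled KO. In those titled WT, Actrt2 overlapped with Actl7a, Cypt2 with Cylc2, Cylc1 with Actrt3, and Cypt15 with Actrt1. The libraries held an estimated 27800000 to 39600000 fragments. From this the values rest on about 145 to 382 fragments for Cypt15, 417 to 869 for Actrt1 and 17031 to 22973 for Actl7b.

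The Cypt genes showed the largest differences. Cypt proteins are small, basic and rich in cysteine, and were named after their place in the theca. Cypt2 (ENSMUSG00000090132.2) has 2 exons and lies on the plus strand at chrX:105499772-105500639 of GRCm38. It was at 114, 131 and 118 FPKM in titled KO replicates 1 to 3, against 63.1, 53.2 and 64.4 FPKM in titled WT replicates 1 to 3. Every library titled KO thus held more than every library titled WT. The fold of the means was 2.01, with a log2FC of 0.999 (SE 0.08, limma adjusted p = 0.000407), and it held the 21st smallest p of all tested genes. Cypt15 (ENSMUSG00000079619.2), at chrX:39346267-39346963 on the plus strand with 2 exons, is another X-linked gene of the family, with a shorter transcript of 519 nt. Its values were 20.2, 21.8 and 18.6 FPKM in the libraries titled KO, against 10.1, 12.0 and 13.3 FPKM in those titled WT. The groups did not overlap, the fold of the means was 1.71, and the log2FC was 0.73 (SE 0.10, limma adjusted p = 0.0088).

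Cypt2 and Cypt15 were set beside the other members of their family. The tables hold 5 of them, all tested: Cypt1, Cypt3 and Cypt14 on the X chromosome, Cypt4 on chromosome 9 and Cypt12 on chromosome 3. All 5 were higher by limma at an unadjusted p below 0.05, beside 5.38% of all tested genes. That share covers all chromosomes, whereas Cypt1, Cypt3 and Cypt14 are X-linked. At the adjusted threshold 14.2% of X-linked tested genes were called higher, against 0.21% of autosomal ones. Cypt3 was the only one called higher, at 143, 143 and 137 FPKM in the titled KO group against 99.3, 84.5 and 110.4 FPKM in the titled WT group (log2FC 0.53, SE 0.09, limma adjusted p = 0.0305). Cypt1 was at 229 ± 13.4 FPKM in the titled KO group against 157 ± 24.2 FPKM in the titled WT group (SD, n = 3 each; log2FC 0.55, limma adjusted p = 0.0794). Neither Cypt1 nor Cypt14 was called, although their groups did not overlap. The low Cypt14, at 5.01, 5.46 and 4.01 FPKM in the titled KO group against 3.13, 2.82 and 3.77 FPKM in the titled WT group, had a log2FC of 0.46 (limma adjusted p = 0.121). The log2(FPKM + 1) scale understates changes of low genes. The fold of the means of Cypt14 was 1.49, beside 1.45 for Cypt1 and 1.44 for Cypt3. The autosomal relatives were the most abundant of the family. Cypt12 averaged 708 ± 30.7 FPKM in the titled KO group against 595 ± 31.4 FPKM in the titled WT group (SD, n = 3 each; log2FC 0.25, limma adjusted p = 0.0728). Its groups did not overlap either, and it was not called. Cypt4 averaged 396 ± 23.8 FPKM in the titled KO group against 346 ± 41.2 FPKM in the titled WT group (SD, n = 3 each; log2FC 0.20, limma adjusted p = 0.348), and its groups overlapped. The 5 X-linked Cypt genes thus had fold changes of 0.46 to 0.999 on the log2 scale, and the 2 autosomal ones 0.20 and 0.25.

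Reads can be shared between copies. Cypt14 and Cypt15 are 93.8% identical over 514 nt of transcript, so the division of reads between this pair is uncertain. No other pair of the family reached 90% identity over 50% of a transcript: Cypt2 was closest to Cypt3, at 83.9% over 703 nt, and was 73.5% identical to Cypt1 and 76.4% identical to Cypt4. Cypt4 lies inside an intron of Dpy19l2 on the other strand, and Dpy19l2 was at 52.8 ± 0.368 FPKM in the titled KO group against 55.1 ± 3.16 FPKM in the titled WT group (SD, n = 3 each).

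The family members also resemble each other upstream of their starts, on the X chromosome and off it. Shown here are 170 bases before the RefSeq transcript start of the X-linked Cypt2 and Cypt15 and of the autosomal Cypt4 (RefSeq, GRCm38.p6, all on the plus strand, 5′ to 3′). Capitals mark the 4 blocks of at least 9 bases that occur in the 250 bases upstream of the RefSeq start of all 7 Cypt genes. In GENCODE, Cypt12 starts at chr3:17948410, before its RefSeq start. Its block nearest the RefSeq start thus lies inside the GENCODE gene, and the next block reaches the first base of that gene.
Cypt2, chrX:105499602-105499771: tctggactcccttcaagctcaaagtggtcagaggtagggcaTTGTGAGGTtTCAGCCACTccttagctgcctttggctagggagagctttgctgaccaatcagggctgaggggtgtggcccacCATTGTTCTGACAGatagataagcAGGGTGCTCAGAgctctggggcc
Cypt15, chrX:39346096-39346265: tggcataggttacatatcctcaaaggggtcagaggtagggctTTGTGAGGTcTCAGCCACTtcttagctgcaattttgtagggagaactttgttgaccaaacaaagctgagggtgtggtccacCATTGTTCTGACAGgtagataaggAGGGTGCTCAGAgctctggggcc
Cypt4, chr9:24625015-24625184: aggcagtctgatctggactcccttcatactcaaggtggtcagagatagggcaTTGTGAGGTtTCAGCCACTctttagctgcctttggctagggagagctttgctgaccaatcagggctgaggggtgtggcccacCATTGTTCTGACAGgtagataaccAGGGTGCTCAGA
Aligned over their 250 upstream bases, Cypt2 was 94.6% identical to Cypt4, and 79.7% identical to Cypt15. The pair most alike upstream was Cypt14 and Cypt15, at 98.8%. Cypt2 had the largest and Cypt4 the smallest difference of the family, and only 3 of the other pairs were more alike in this stretch. Whether the upstream sequence bears on these differences was not tested.

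The shared blocks were defined as stretches found in all 7 Cypt windows, so their presence there was fixed in advance. Longer stretches recur less often in any windows, and the share for other stretches of equal length was not measured. Among 32851 promoter windows of 250 bases, searched on both strands, TTGTGAGGT occurred in 0.344%, TCAGCCACT in 0.353%, CATTGTTCTGACAG in 0.0213% and AGGGTGCTCAGA in 0.0304%. The 14-base block was found in 7 windows, those of the 7 Cypt genes. One further gene, the Y-linked zinc finger gene Zfy2, held 2 of the blocks in the same order, at 115 and 105 bases before its start. Zfy2 was picked out by this match, after its values had been seen. Its level was 4.16, 4.48 and 4.01 FPKM in the libraries titled KO, against 3.46, 2.70 and 3.36 FPKM in those titled WT. These groups did not overlap, and Zfy2 was not called (log2FC 0.33, SE 0.09, limma adjusted p = 0.137). Zfy2 also resembles Cypt genes within the transcript. It was 83.6% identical to Cypt1 over 219 nt, 83.4% to Cypt3 over 235 nt, 79.8% to Cypt4 over 248 nt and 74.7% to Cypt2 over 257 nt. Whether reads were shared between them was not tested. A match of letters is a description and says nothing of which factor, if any, binds there.

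**Figure D2:**
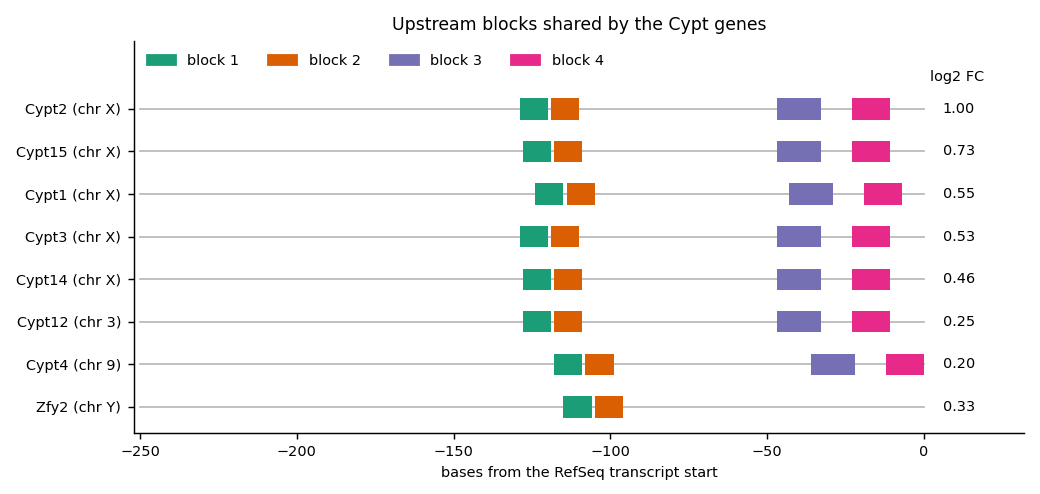
Positions of the 4 shared blocks (coloured bars) in bases from the RefSeq transcript start (horizontal axis) for the 7 Cypt genes and Zfy2, with each gene's log2FC, titled KO over titled WT, at the right. The blocks stand in the same order in all 7 Cypt genes. The fold changes run from 0.999 for Cypt2 to 0.20 for Cypt4, and no link between blocks and fold changes was tested.

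Outside the Cypt family, upstream windows of the theca genes were searched for the cyclic AMP response element TGACGTCA, the site of CREM, a factor needed for spermatid gene expression. Windows from RefSeq matched 8 of the 10 theca genes, all but Cylc2 and Capza3. None of these windows held TGACGTCA, which occurred in 1.55% of all windows. The looser form TGANGTCA, on either strand and including the full element, occurred in 7.49% of all windows and in those of Actl7a, Actl7b and Cylc1, at 40, 36 and 32 bases before the start. Further motifs searched were the shorter element TGACG, found in 17.8% of all windows, the TATA element TATAAA, found in 12.4%, the box CCAAT, found in 33.8%, and the GATA motif GATAAG, found in 6.55%. Of the 8 theca genes with a window, GATAAG was in those of Cypt2, Cypt15, Actrt2 and Actl7a, CCAAT in those of Cypt2 and Actl7b, TGACG in that of Actrt3, and TATAAA in none. Of the 7 Cypt genes, 5 held GATAAG, the X-linked Cypt1, Cypt2, Cypt3, Cypt14 and Cypt15, while the autosomal Cypt4 and Cypt12 did not. In Cypt1 it lay on the other strand and further from the start than in Cypt2. Outside the family, the autosomal Actrt2 and Actl7a held GATAAG and the X-linked Cylc1 and Actrt1 did not. CCAAT was in 5 Cypt genes, Cypt1, Cypt2, Cypt3, Cypt4 and Cypt12. Whether either motif bears on the differences was not tested. All motifs were chosen with results of these data known. Because they hold the looser element, these 3 stretches are shown with it in capitals (RefSeq, GRCm38.p6, 5′ to 3′ on the strand of the gene).
Actl7a, chr4:56743356-56743412, plus strand: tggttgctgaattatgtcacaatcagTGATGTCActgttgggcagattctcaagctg
Actl7b, chr4:56741444-56741487, minus strand: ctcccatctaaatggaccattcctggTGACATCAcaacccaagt
Cylc1, chrX:111110360-111110417, plus strand: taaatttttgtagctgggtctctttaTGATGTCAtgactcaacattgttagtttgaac
Actl7a and Actl7b lie on chromosome 4 and Cylc1 on the X chromosome, and their log2FCs were 0.23, -0.09 and 0.52.

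The cylicins are long, lysine-rich proteins of the calyx, the part of the theca behind the acrosome, and male mice without them have misshapen sperm heads. The pair is split between the X chromosome and an autosome. Cylc1 (ENSMUSG00000073001.3), at chrX:111110418-111125854 on the plus strand, was at 39.9, 39.7 and 37.4 FPKM in the libraries titled KO, against 28.2, 23.6 and 29.1 FPKM in those titled WT. Its groups lay apart, with a fold of the means of 1.45 and a log2FC of 0.52 (SE 0.08, limma adjusted p = 0.0146). Leaving out single libraries ended its call in 3 cases: titled KO replicate 2 (limma adjusted p = 0.0704), titled KO replicate 3 (0.0628) and titled WT replicate 1 (0.0552). Cylc2 (ENSMUSG00000039555.13), at chr4:51216678-51230272 on the plus strand, was at 52.5, 59.3 and 54.7 FPKM in the titled KO group against 50.3, 42.8 and 53.2 FPKM in the titled WT group. Its groups overlapped, and it was not called (log2FC 0.19, SE 0.08, limma adjusted p = 0.353). Without titled WT replicate 2 the log2FC of Cylc2 was 0.10.

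The actin-related genes of the theca form the largest group and the most varied one. Actrt1 (ENSMUSG00000046615.2), a single-exon X-linked gene at chrX:46329007-46330345 on the plus strand, was at 18.0, 18.5 and 15.9 FPKM in the titled KO group against 11.2, 9.93 and 12.1 FPKM in the titled WT group. Its groups lay apart (fold of the means 1.58, log2FC 0.61, SE 0.08, limma adjusted p = 0.0085). Its nearest relative by sequence is Actrt2 on chromosome 4, 70.0% identical over 1135 nt. Actrt2 (ENSMUSG00000051276.4), a single-exon gene at chr4:154666433-154667867 on the minus strand, was at 229.8, 239.9 and 231 FPKM in the titled KO group against 194, 173 and 209 FPKM in the titled WT group. These groups did not overlap either, but the difference did not pass (log2FC 0.28, SE 0.07, limma adjusted p = 0.106). Without titled WT replicate 3 Actrt2 was called (log2FC 0.34, limma adjusted p = 0.0208). Actrt3 (ENSMUSG00000037737.6), whose protein is known to bind the testis profilin Pfn3, lies at chr3:30597073-30599939 on the minus strand. It was at 31.5, 34.3 and 30.2 FPKM in the titled KO group against 29.9, 24.8 and 33.6 FPKM in the titled WT group, with overlapping groups and a log2FC of 0.13 (SE 0.10, limma adjusted p = 0.568). With titled KO replicate 2 left out its log2FC was 0.08. Leaving out a library titled WT gave 0.01 for replicate 2 and 0.22 for replicate 3.

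Actl7a and Actl7b encode actin-like proteins of spermatids, and male mice lacking either are infertile. Both genes are single exons on chromosome 4, and they point away from each other across 1969 bp. Actl7a (ENSMUSG00000070979.5), at chr4:56743413-56744925 on the plus strand, was at 204, 225 and 203 FPKM in the titled KO group against 176, 172 and 193 FPKM in the titled WT group. Actl7b (ENSMUSG00000070980.4), at chr4:56740005-56741443 on the minus strand, was at 400.4, 414 and 403 FPKM in the titled KO group against 426, 434 and 434 FPKM in the titled WT group. The groups of each gene lay apart, in opposite directions, and neither difference passed: the log2FC was 0.23 for Actl7a (SE 0.06, limma adjusted p = 0.158) and -0.09 for Actl7b (SE 0.04, limma adjusted p = 0.386). Actl7b was the only theca gene of the 10 with a negative value, which was -0.04 with upper-quartile or median-of-ratios scaling and -0.17 with late spermatid scaling. An annotated gene on the other strand, Gm26657, covers 1308 bp of Actl7b and has no row in the tables, and it is not known here whether reads were assigned by strand.

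Capza3 (ENSMUSG00000041791.6) encodes the testis alpha subunit of the capping protein, which closes the growing end of actin filaments together with a beta subunit from Capzb. It lies at chr6:140041252-140042778 on the plus strand. Its values were 117, 136 and 118 FPKM in the titled KO group against 102, 100.1 and 115 FPKM in the titled WT group, so that the groups lay apart by a narrow gap. It was not called (log2FC 0.22, SE 0.08, limma adjusted p = 0.244). Its bounds overlap the neighbouring Plcz1 by 206 bp, with 0 exonic bases shared. Plcz1 was at 76.4 ± 3.74 FPKM in the titled KO group against 75.3 ± 4.27 FPKM in the titled WT group (SD, n = 3 each).

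Of the 10 theca genes, 7 had all 3 libraries titled KO above all 3 titled WT and 1, Actl7b, had them below. Over all tested genes these shares were 5.92% and 15.8%, over X-linked genes 33.4% lay above, and over autosomal genes 4.74% did. The autosomal theca genes with such separation are Actrt2, Actl7a and Capza3.

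**Figure D3:**
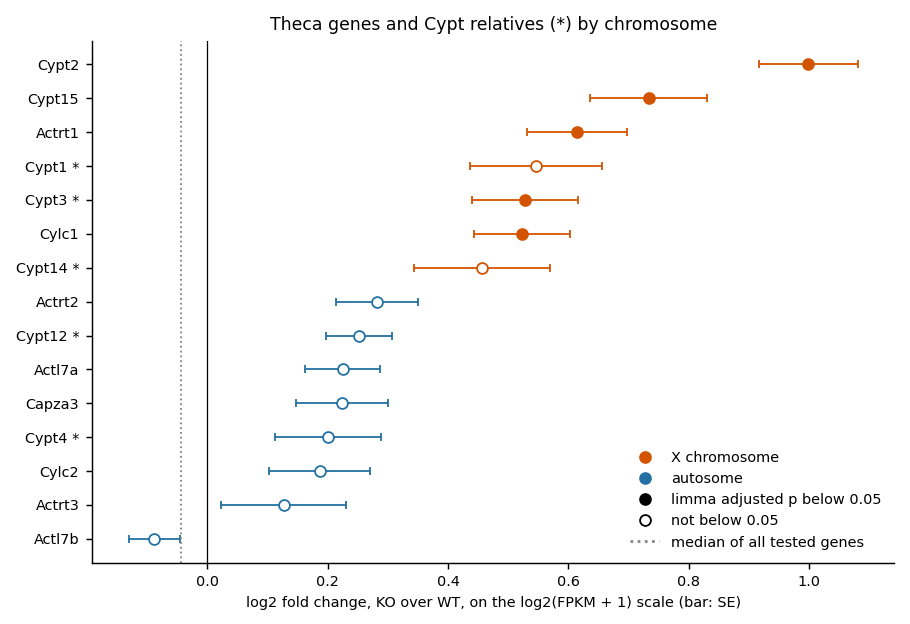
Log2 fold changes, titled KO over titled WT (horizontal axis, bars are SE), of the 10 theca genes and the 5 other Cypt genes (starred); filled points passed limma's threshold. The 7 X-linked genes lie between 0.46 and 0.999 and the 8 autosomal genes between -0.09 and 0.28.

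Ratios between genes within a library do not depend on how the libraries were scaled. The ratio of Cylc1 to Cylc2 was 0.759, 0.671 and 0.685 in titled KO and 0.559, 0.551 and 0.548 in titled WT. The X-linked cylicin thus made up more of the pair in every library titled KO. The ratio of Actl7a to Actl7b was 0.510, 0.543 and 0.504 in titled KO and 0.414, 0.395 and 0.444 in titled WT, so this autosomal pair also shifted, by 1.24-fold in the means. The ratio of Cypt2 to Cypt15 was 5.66, 6.00 and 6.38 in titled KO and 6.26, 4.44 and 4.85 in titled WT, and overlapped. The ratios that follow were chosen after the values had been seen. Cypt2 stood at 0.306 ± 0.00525 of Cypt4 in titled KO and at 0.174 ± 0.00473 of it in titled WT (SD, n = 3 each). Actrt1 stood at 0.0748 ± 0.00526 of Actrt2 in titled KO and at 0.0575 ± 0.000282 of it in titled WT (SD, n = 3 each). Cypt15 over Cypt12 and Cypt3 over Cypt4 were likewise higher in every library titled KO, by 1.44-fold and 1.26-fold in the means. None of these ratios was tested.

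**Figure D4:**
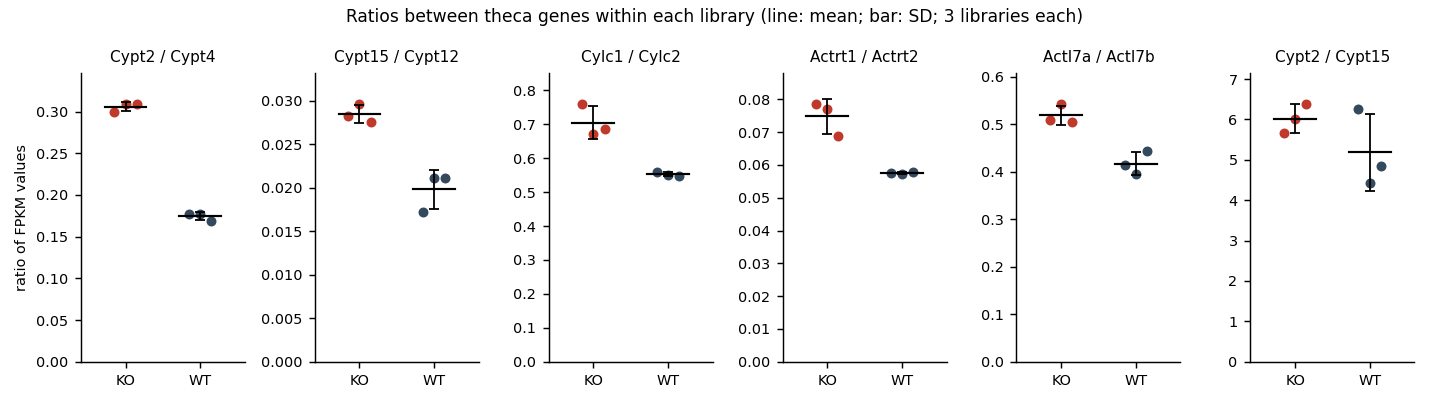
Ratios of FPKM values between theca genes, or to an autosomal Cypt relative (vertical axes, each from 0) in the 3 libraries titled KO and the 3 titled WT; points are libraries, lines are means and bars are SD. The ratio of Cypt2 to Cypt4, X-linked over autosomal, lies near 0.306 in titled KO and 0.174 in titled WT, while that of Cypt2 to Cypt15 overlaps.

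Other proteins of the theca and of actin binding were examined from lists of genes. These lists and the marker lists below share genes, so their counts are not separate readings. Capzb is in both the theca and the capping protein list, and Actg2 is both an actin and a peritubular marker. Spem1 is also a late spermatid marker, and some of the further theca genes are also round spermatid markers. None of 12 further theca and acroplaxome genes was called by limma (4 were higher and 0 lower at an unadjusted p below 0.05, beside 5.38% and 8.89% of all tested genes), and their median log2FC was 0.07, beside -0.04 for all tested genes. Spem1, H2bl1 and Actl9 were the most abundant. Spem1, needed for the removal of spermatid cytoplasm, was at 382 ± 9.23 FPKM in the titled KO group against 347 ± 18.3 FPKM in the titled WT group (log2FC 0.14, limma adjusted p = 0.279; SD, n = 3 each). H2bl1, a histone H2B variant first found in the theca of bull sperm, was at 357 ± 22.0 FPKM in the titled KO group against 307 ± 17.8 FPKM in the titled WT group (log2FC 0.22, limma adjusted p = 0.17; SD, n = 3 each). Actl9, another actin-like gene, was at 240.2 ± 3.89 FPKM in the titled KO group against 219.9 ± 14.8 FPKM in the titled WT group (log2FC 0.13, limma adjusted p = 0.347; SD, n = 3 each). Ccin, which encodes calicin of the calyx, had a log2FC of 0.03 (limma adjusted p = 0.829), and Plcz1, the egg-activating phospholipase, 0.02 (limma adjusted p = 0.875). Of 8 profilins and capping proteins none was called by limma (2 were lower at an unadjusted p below 0.05), with a median of -0.10. Capzb, the partner of Capza3, was at 154 ± 2.66 FPKM in the titled KO group against 157 ± 4.36 FPKM in the titled WT group (SD, n = 3 each; log2FC -0.03, limma adjusted p = 0.785). The somatic alpha subunit Capza1 had a log2FC of -0.08 (limma adjusted p = 0.56) and Pfn4, a testis profilin, 0.03 (limma adjusted p = 0.774). Of 15 tested actins and actin-related genes outside the theca none was called by limma either (2 were higher and 1 lower at an unadjusted p below 0.05), with a median of -0.05.

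Theca genes are spermatid genes, so markers of spermatid stages were read beside them. Of 15 late spermatid markers none was called by limma, with 6 higher and 1 lower at an unadjusted p below 0.05, beside 5.38% and 8.89% of all tested genes. Their summed level was 38393 to 40646 FPKM in the titled KO group against 33013 to 37147 FPKM in the titled WT group, and 11 of the 15 had positive values, with a median log2FC of 0.04. Most of that gap lay in the transition protein and protamine genes Tnp1, Tnp2, Prm1 and Prm2, set apart after their values were seen. These 4 summed to 30028 to 31977 FPKM in the libraries titled KO, against 24917 to 28696 FPKM in those titled WT. The other 11 summed to 8223 to 8669 FPKM in the libraries titled KO, against 8096 to 8451 FPKM in those titled WT, and these sums overlapped. The largest log2FC of the 15 was 0.35, for the transition protein gene Tnp2 (limma adjusted p = 0.0735). The 15 round spermatid markers summed to 3810 to 4093 FPKM in the titled KO group against 3660 to 3930 FPKM in the titled WT group, with a median of 0.06 and none called by limma (1 higher at an unadjusted p below 0.05). The 6 autosomal theca genes lay between -0.09, for Actl7b, and 0.28, within the late spermatid marker range of -0.13 to 0.35. The 4 X-linked theca genes lay above all of these markers. Of these markers only Akap4 is X-linked (log2FC 0.13, limma adjusted p = 0.247). The X-linked theca genes were thus set beside markers that are nearly all autosomal. After the libraries were scaled to the late spermatid markers, Cypt2, Cypt15, Actrt1 and Cylc1 had log2FCs of 0.92, 0.66, 0.54 and 0.45 and were called by limma. In the same scaling Actrt2, Actl7a and Capza3 stood at 0.20, 0.15 and 0.15, Cylc2 at 0.11, Actrt3 at 0.05 and Actl7b at -0.17. Markers of spermatocytes, spermatogonia, Sertoli cells, Leydig cells, macrophages and epididymis had no gene called by limma. At an unadjusted p below 0.05, 1 spermatocyte, 2 spermatogonial, 2 Sertoli cell and 1 Leydig cell marker were lower and 0 of these lists higher, beside 8.89% and 5.38% of all tested genes in those directions. Of the 10 epididymis markers 4 were listed at 0 throughout and 2 were tested. Of 7 peritubular cell markers 1 was called, Myl9, which was lower (log2FC -0.28, limma adjusted p = 0.0475), at 26.8 ± 0.577 FPKM in the titled KO group against 32.7 ± 1.14 FPKM in the titled WT group (SD, n = 3 each). At an unadjusted p below 0.05 the peritubular markers went both ways, with Myl9 and Cnn1 lower and Actg2 higher. Actg2, the smooth muscle gamma actin, was at 142 ± 3.13 FPKM in the titled KO group against 122 ± 8.68 FPKM in the titled WT group (SD, n = 3 each). The peritubular marker Acta2 stood far lower, at 14.3 ± 1.30 FPKM in the titled KO group against 16.1 ± 2.83 FPKM in the titled WT group (SD, n = 3 each). Whether the Actg2 level comes from peritubular cells was not tested. The peritubular markers together summed to 195 to 199 FPKM in the libraries titled KO, against 178 to 193 FPKM in those titled WT. Most of this sum was Actg2, so it is not a reading of the 7 markers alike. Only 2 of the 7, Actg2 and Des, had positive values, and the median log2FC was -0.13. The medians of these lists, other than the spermatid ones, lay between -0.16 and 0.04. Positive values were found in 0 of 10 Leydig cell, 1 of 8 macrophage, 2 of 11 Sertoli cell, 2 of 7 spermatogonial, 2 of 7 peritubular, 7 of 15 spermatocyte and 12 of 15 round spermatid markers, beside 34.3% of all tested genes. The part of cell composition in the theca differences was not tested.

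The genes whose levels ran closest to each called theca gene were found by the largest absolute gap between centred log2 values over the 6 libraries. For Cypt2 they were Gm5941 (largest gap 0.08), H2al1m (0.11) and 1700010D01Rik (0.13), all X-linked. Cylc1 ran closest to its fellow theca gene Cypt3, with a largest gap of 0.06, and then to Cpxcr1 (0.08) and Tspan6 (0.08), all X-linked. The nearest to Actrt1 were the X-linked F8a (0.09), Gm6812 (0.09) and Tspan6 (0.09). For Cypt15 they were the X-linked Slxl1 (0.12), Grip1os1 on chromosome 10 (0.12) and 1700096J18Rik on chromosome 11 (0.12). All of these genes were themselves called higher, and the measure includes the group difference.

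**Figure D5:**
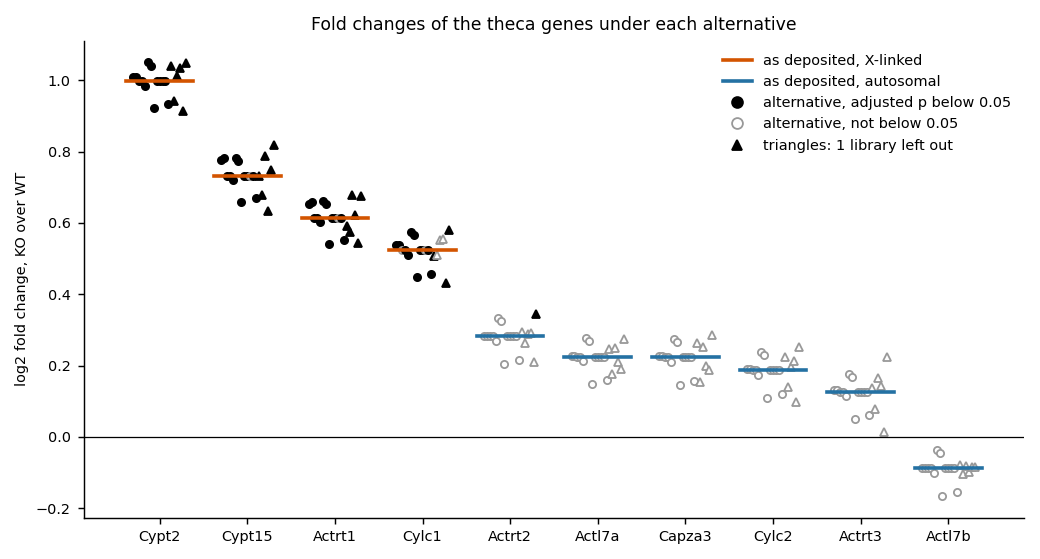
Log2 fold changes of the 10 theca genes, titled KO over titled WT (vertical axis), under 19 alternatives each; coloured lines are the values as deposited, black points have a limma adjusted p below 0.05, and triangles leave out 1 library. Cypt2 stayed between 0.91 and 1.05 and past the threshold in all 19, and no gene changed sign.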

How the data were processed

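Libraries from total testis RNA were made with a directional kit, per the labels' protocols. The submitters' processing notes name HISAT2 and mm10, with no version. The sources used here do not name the quantifier, the annotation or its use of strand. The authors' deposited values, 1 library per file, were read as FPKM (normalized by the authors to transcript length and library size) because value times transcript length falls on multiples of a step. Tables of 25910 rows were summed per symbol (333 symbols stood on several rows, none of them a theca gene). Depth was estimated from the spacing of low values in genes with 1 transcript, as whole steps of 1 fragment, and covers counting error only.

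Genes, lists and alternatives were chosen with earlier results of these data known. limma 3.58.1 in R 4.3.3 (trend, robust) was run on log2(FPKM + 1), which understates changes of low genes, and tested on simulated data. P-values measure the spread between libraries, which may be technical. Named were the 10 genes, the target, every called gene of a list, the 3 most abundant of the Cypt, theca and actin partner lists, and the 3 closest genes by profile for each called theca gene. Zfy2, Ccin, Plcz1, Tnp1, Tnp2, Prm1, Prm2, Akap4, Actg2, Acta2, Des, Cnn1, Dpy19l2 and Cypt14 were added after their values were seen. Positions are from GENCODE M21 (GRCm38, the assembly of mm10), copies from BLAST 2.17.0, upstream alignments from Biopython 1.88, figures from matplotlib 3.10.9.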

Additional observations from a re-analysis of the deposited data

How the results depend on the processing

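All 10 theca genes kept the sign of their fold change under 19 alternatives each (2 pseudocounts, 2 filters, 5 scalings, 2 variance settings, the replicate block, single-row symbols, and each library left out). Scaling to round spermatid markers was added after the data were seen. The number of theca genes called higher was 3 to 5 with 1 library left out, and 0 were called lower under each of these. Without a filter Cylc1 was not called (log2 fold change 0.52, limma adjusted p = 0.06), with more genes tested. With the replicate number as a block, 1 theca gene was called higher, Cypt2, while Cypt15 (0.73, limma adjusted p = 0.0502), Actrt1 (0.61, 0.0755) and Cylc1 (0.52, 0.077) were not. The labels do not say that the numbers pair libraries, so the numbers were not taken as pairs. Deviations of same-numbered libraries correlated at 0.0647, -0.129 and 0.0614. Those of differently numbered libraries ran from -0.249 (titled KO replicate 1 with titled WT replicate 3) to 0.197 (titled KO replicate 2 with titled WT replicate 3). Leaving out libraries gave log2 fold changes of 0.43 to 0.58 for Cylc1, 0.21 to 0.34 for Actrt2, 0.63 to 0.82 for Cypt15, 0.54 to 0.68 for Actrt1, 0.10 to 0.25 for Cylc2 and 0.01 to 0.22 for Actrt3. Over all tested genes, 102 were called higher and 47 lower as deposited. Leaving out libraries gave 49 to 184 higher and 23 to 49 lower. Higher calls were 56 without a filter, 32 with the block, 178 at a threshold of 0.1 and 38 at 0.01. Lower calls were 28 with median-of-ratios scaling, 120 with late spermatid scaling, 18 with the block, 27 with single-row symbols, 96 at a threshold of 0.1 and 19 at 0.01. Called genes were 68.5% higher as deposited, 82.4% with upper-quartile and 50.6% with late spermatid scaling. The cause of these shifts was not tested.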
